A study of Mus musculus with 15 samples.

Results

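The Dectin-2 cluster is a run of C-type lectin genes on mouse chromosome 6, and the 9 members described here, of 38924 genes counted, were taken by symbol: Clec4a1, Clec4a2, Clec4a3, Clec4a4, Clec4b1, Clec4b2, Clec4d, Clec4e and Clec4n. RNA was sequenced from 5 sorted mononuclear phagocyte subtypes of naive C57BL/6 mice aged 6 to 8 weeks, with 3 libraries per subtype and 15 in all. The subtypes were splenic CD8+ DCs and lung lymph node (LN) CD103+ DCs, which are the DC1 lineage, splenic CD4+ DCs and LN CD11b+ DCs, which are the DC2 lineage, and splenic Ly6C+ monocytes. No group carried a transgene, a deletion or a treatment. Every library held cells pooled from several mice, spleens and LNs came from different cohorts, and DCs were enriched with CD11c beads but monocytes with CD11b beads. By the paper, the LN DCs were gated as migratory by high MHC class II, and the spleen holds resident DCs only. Organ, cohort and migratory state therefore cannot be told apart, nor can monocyte identity and bead.

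Members of the cluster are single-pass receptors with an extracellular lectin domain that binds glycans and glycolipids of microbes and of dead cells, and they are found mainly on myeloid cells. They fall into activating and inhibitory receptors. Dectin-2 (Clec4n), Mincle (Clec4e), MCL (Clec4d) and the DCAR receptors (Clec4b1, Clec4b2) act through the Fc receptor gamma chain, which recruits the kinase Syk and then the Card9, Bcl10 and Malt1 complex, whereas DCIR1 (Clec4a2) and DCIR2 (Clec4a4) carry an inhibitory tyrosine motif that recruits the phosphatases SHP-1 and SHP-2. Clec4a1 and Clec4a3 encode the related receptors DCIR4 and DCIR3.

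In the gene models counted (GRCm38), the cluster spanned chr6:122921848-123289870, or 368023 bases. Along the chromosome the order was Clec4a1, Clec4a3, Clec4a4, Clec4b1, Clec4a2, Clec4b2, Clec4n, Clec4d and Clec4e, with 8 members on the plus strand in this order before Clec4e on the minus strand. The gaps between neighbours ran from 6520 bases, between Clec4d and Clec4e, to 34872 bases, between Clec4b1 and Clec4a2. No exon of a member overlapped an exon of another gene, and the 2 other genes inside the cluster passed 1 CPM (counts scaled to a common library total) in no library. The members are paralogues, and reads that map to more than 1 place were not counted. Of the 50-base words of a member's transcripts, 15.7% of those of Clec4a4, 8.68% of those of Clec4b1 and 6.83% of those of Clec4a2 also occurred in another gene, so the levels of these 3 genes may be understated. For Clec4n the share was 0.686%, and for the other 5 members it was 0%. By the paper, reads were discarded only below a length that is under 50 bases. Shared stretches shorter than these words may therefore also have cost reads.

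Clec4b1 and Clec4b2 were picked as paralogues with different patterns across the subtypes, and Clec4a1 and Clec4e as members with their highest mean in monocytes. Upstream bases of these 4 members are shown. They were read from RefSeq (GRCm38.p6) at chr6:123049824-123049916 (plus strand), chr6:123172773-123172867 (plus), chr6:122921598-122921847 (plus) and chr6:123289872-123290121 (minus), and all lie upstream of the earliest annotated start. Capitals mark the letters TTCCTCTT, a tract with the core that PU.1 and other ETS factors bind, on either strand.
Clec4b1: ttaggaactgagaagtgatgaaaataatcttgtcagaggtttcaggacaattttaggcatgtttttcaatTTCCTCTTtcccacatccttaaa
Clec4b2: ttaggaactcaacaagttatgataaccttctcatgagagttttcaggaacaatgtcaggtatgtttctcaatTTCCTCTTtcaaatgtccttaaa
Clec4a1: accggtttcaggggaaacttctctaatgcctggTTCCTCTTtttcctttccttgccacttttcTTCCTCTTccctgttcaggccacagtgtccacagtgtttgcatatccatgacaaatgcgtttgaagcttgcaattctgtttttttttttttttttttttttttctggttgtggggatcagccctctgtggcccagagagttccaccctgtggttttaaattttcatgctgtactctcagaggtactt
Clec4e: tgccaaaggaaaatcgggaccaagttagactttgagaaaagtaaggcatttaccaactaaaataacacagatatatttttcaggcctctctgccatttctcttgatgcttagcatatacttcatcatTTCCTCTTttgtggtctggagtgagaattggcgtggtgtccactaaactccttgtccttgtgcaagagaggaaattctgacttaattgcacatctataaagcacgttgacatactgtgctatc
The stretches of Clec4b1 and Clec4b2 were identical at 74 of 95 aligned positions (77.9%), and both held the capitals, which began 68 and 23 bases before the earliest start. Windows of 300 bases around the start were given for 7 of the 9 members, all but Clec4a4 and Clec4n. The letters occurred on either strand in 6 of the 7, all but Clec4a2, and in 3.56% of the 32851 windows of this length. In Clec4a3 and Clec4d the match lay after the earliest start, by 79 and 7 bases. The letters were chosen after the sequences were read and the paralogues share ancestry, so the count is a description, and a match is not a binding site.

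Libraries held 4531243 to 10233914 counts on genes, of which 17 to 14244 fell on the 9 members. Some markers parted the labelled groups in every library. Xcr1 was at 34.1 CPM or more in all 6 DC1 libraries and at most at 7.73 CPM elsewhere. Itgam (CD11b) was at 89.7 CPM or more in DC2 and monocytes, highest in monocytes, and at most at 13 CPM in DC1. Ly6c2 was at 707 CPM or more in monocytes and at most at 17.2 CPM in DCs. Not all listed markers did so. Mean Itgae (CD103) was 27.2 CPM in LN CD103+ but 107 CPM in splenic CD8+ DCs. Wdfy4 (DC1) was 119 CPM in LN CD103+ but 758 CPM in splenic CD4+ DCs, and Tlr3 (DC1) 7.87 and 9.14 CPM. Esam (DC2) was 53.3 CPM in LN CD103+ and 40 CPM in LN CD11b+ DCs. Lists were less sharp. Summed DC1 markers (9 genes) reached 5426 to 8736 CPM in splenic CD8+ DCs but 896 to 1324 CPM in LN CD103+ DCs, which overlapped splenic CD4+ DCs (766 to 1069 CPM), and summed DC2 markers (7 genes) reached 2381 to 2682 CPM in monocytes, as in splenic CD4+ DCs. Summed monocyte markers (8 genes) lay between 24938 and 27061 CPM in monocytes and at most at 2444 CPM in any DC library. Both LN subtypes held 7938 to 16743 CPM of the 6 migratory DC markers, against at most 688 CPM in the spleen. All 9 members passed the filter on low counts (over 1 CPM in at least 3 libraries), Clec4b2 only through splenic CD8+ DCs and Clec4d mainly through monocytes, so that these had to differ between subtypes to be tested.

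Summed over the 9 members, the level per exon length differed widely between the subtypes. In TPM, which divides counts by exon length, they reached 2002, 2299 and 2027 in the 3 monocyte libraries and 1382, 1640 and 1642 in splenic CD4+ DCs. LN CD11b+ DCs held 592, 579 and 473 TPM and splenic CD8+ DCs 127, 121 and 80.7 TPM, whereas LN CD103+ DCs held 3.64, 5.06 and 6.13 TPM, from 69 counts over the 3 libraries. No 2 subtypes overlapped in this sum. These are bulk samples, in which fewer expressing cells and less RNA per cell cannot be told apart.

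The members that made up this level also differed. Clec4a3 gave 64.8% ± 1.29 (SD, n = 3) of the summed TPM in monocytes and 50.6% ± 6.70 in LN CD11b+ DCs. In splenic CD4+ DCs the leading member was Clec4a4, with 41.1% ± 7.15, followed by Clec4a3 with 24% ± 1.36 and Clec4a1 with 22.4% ± 6.19. Clec4b2 led in splenic CD8+ DCs with 51.5% ± 15.8. In LN CD103+ DCs, Clec4n gave 53.7% ± 22.9 and Clec4a3 33% ± 23.2 of very few counts. The share of Clec4e in monocytes, 2.89% ± 0.336, depended on its length, since its gene model of 4965 exonic bases holds more than its longest coding transcript of 2518 bases, and with that length the share was 5.43%.

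**Figure D1:**
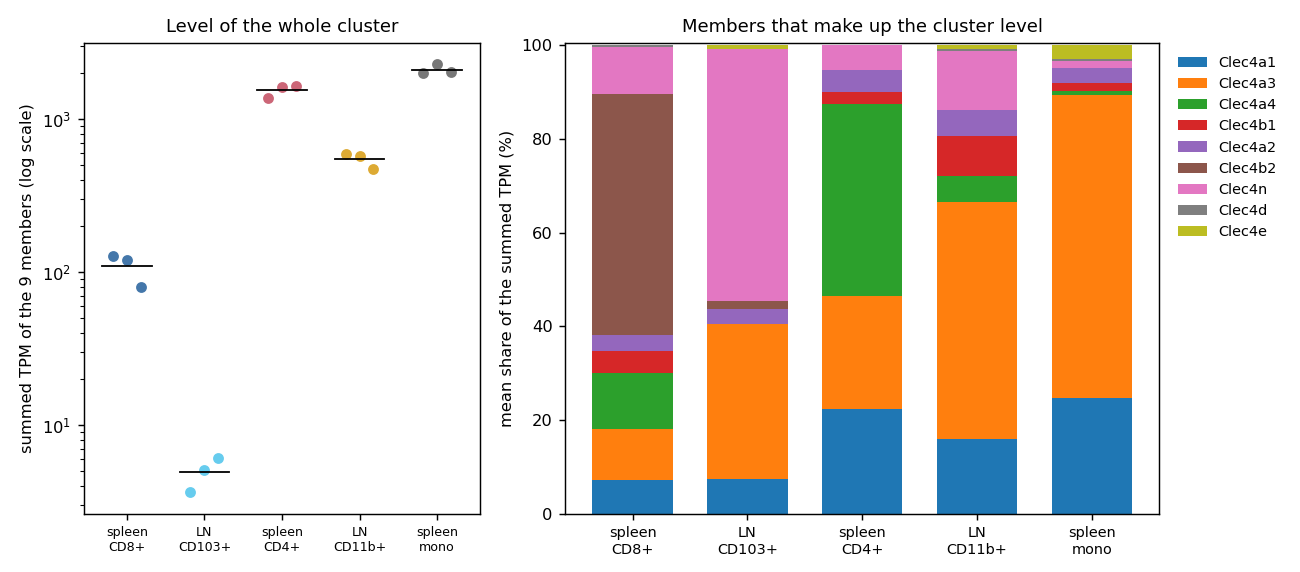
Left, summed TPM of the 9 members in each library (points, log scale) with the subtype mean (line); right, mean share of each member in that sum (%, n = 3 libraries), stacked in chromosome order. The monocyte sums lie between 2002 and 2299 TPM and the LN CD103+ sums between 3.64 and 6.13 TPM, and a different member leads in splenic CD8+ DCs (Clec4b2), splenic CD4+ DCs (Clec4a4) and monocytes (Clec4a3).

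Among the DCIR genes, Clec4a3 (DCIR3) had the highest level of the cluster in monocytes. Its CPM was 630, 801 and 682 in monocytes, 179, 244 and 180 in splenic CD4+ DCs, and 154, 201 and 113 in LN CD11b+ DCs. It was at 4.78, 10.1 and 4.58 CPM in splenic CD8+ DCs and at 0.14, 1.52 and 1.49 CPM in LN CD103+ DCs. Monocytes stood apart from every DC library, the DC2 subtypes overlapped each other, and every DC2 library exceeded every DC1 library. The order was monocytes, splenic CD4+ DCs, LN CD11b+ DCs, splenic CD8+ DCs and LN CD103+ DCs, and of the neighbours in it only splenic CD4+ and LN CD11b+ DCs did not pass the test (adjusted p = 0.396). Clec4a3 was 3.5-fold higher in monocytes than in splenic CD4+ DCs (log2 1.81 ± 0.31 SE, adjusted p = 0.000122).

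Clec4a1 (DCIR4) was high in the spleen outside DC1. It reached 301, 326 and 311 CPM in monocytes and 190, 333 and 150 CPM in splenic CD4+ DCs, and these groups overlapped (adjusted p = 0.277). LN CD11b+ DCs held 69.4, 67.2 and 37.1 CPM, all below the splenic CD4+ libraries, a 3.88-fold difference (log2 -1.95 ± 0.37, adjusted p = 0.000395). In splenic CD8+ DCs it was 7.65, 7.42 and 1.6 CPM, and in LN CD103+ DCs 0.279, 0.117 and 0.331 CPM, which is 5 counts over the 3 libraries.

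Clec4a2 (DCIR1), an inhibitory receptor, was shared by monocytes and splenic CD4+ DCs. Its CPM was 75.9, 89 and 88.1 in splenic CD4+ DCs, 79.3, 86.6 and 70 in monocytes, and 35.8, 28.3 and 39.3 in LN CD11b+ DCs. The first 2 groups overlapped (adjusted p = 0.817), and LN CD11b+ DCs lay below both. In the DC1 subtypes Clec4a2 was at 7.17, 4.59 and 1.95 CPM in the spleen and at 0.14, 0 and 0.497 CPM in the LN.

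Clec4a4 (DCIR2), the other receptor with an inhibitory motif, was nearly restricted to splenic CD4+ DCs among these samples. These held 155, 214 and 230 CPM, and no other library exceeded 12.2 CPM. LN CD11b+ DCs, of the same lineage, held 9.36, 7.18 and 12.2 CPM, which is 20.9-fold lower (log2 -4.40 ± 0.45, adjusted p = 1.32e-06). Monocytes held 5.31, 4.96 and 3.68 CPM, splenic CD8+ DCs 9.2, 3.51 and 1.15 CPM, and LN CD103+ DCs no count, so that splenic CD4+ DCs were at least 1450-fold higher than LN CD103+ DCs (against a floor of 3 counts over the 3 libraries). The order of LN CD11b+ DCs, monocytes and splenic CD8+ DCs was not resolved (adjusted p = 0.0754 and 1), and without splenic CD8+ replicate 1 LN CD11b+ DCs exceeded splenic CD8+ DCs (log2 2.05, adjusted p = 0.000933, against 1.03 and 0.0825 with it). Clec4a4 in monocytes was below LN CD11b+ DCs without splenic CD8+ replicate 1 or 3 (adjusted p = 0.0167 and 0.0176), with DESeq2 (0.0457), with no filter on low counts (0.00359) and in a fit of only these subtypes (0.0166). LN CD11b+ exceeded splenic CD8+ DCs also with DESeq2 (0.0491), with no filter (0.00335) and with limma on log2(TPM + 1) and log2(TPM + 0.1) (0.0356 and 0.0418).

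**Figure D2:**
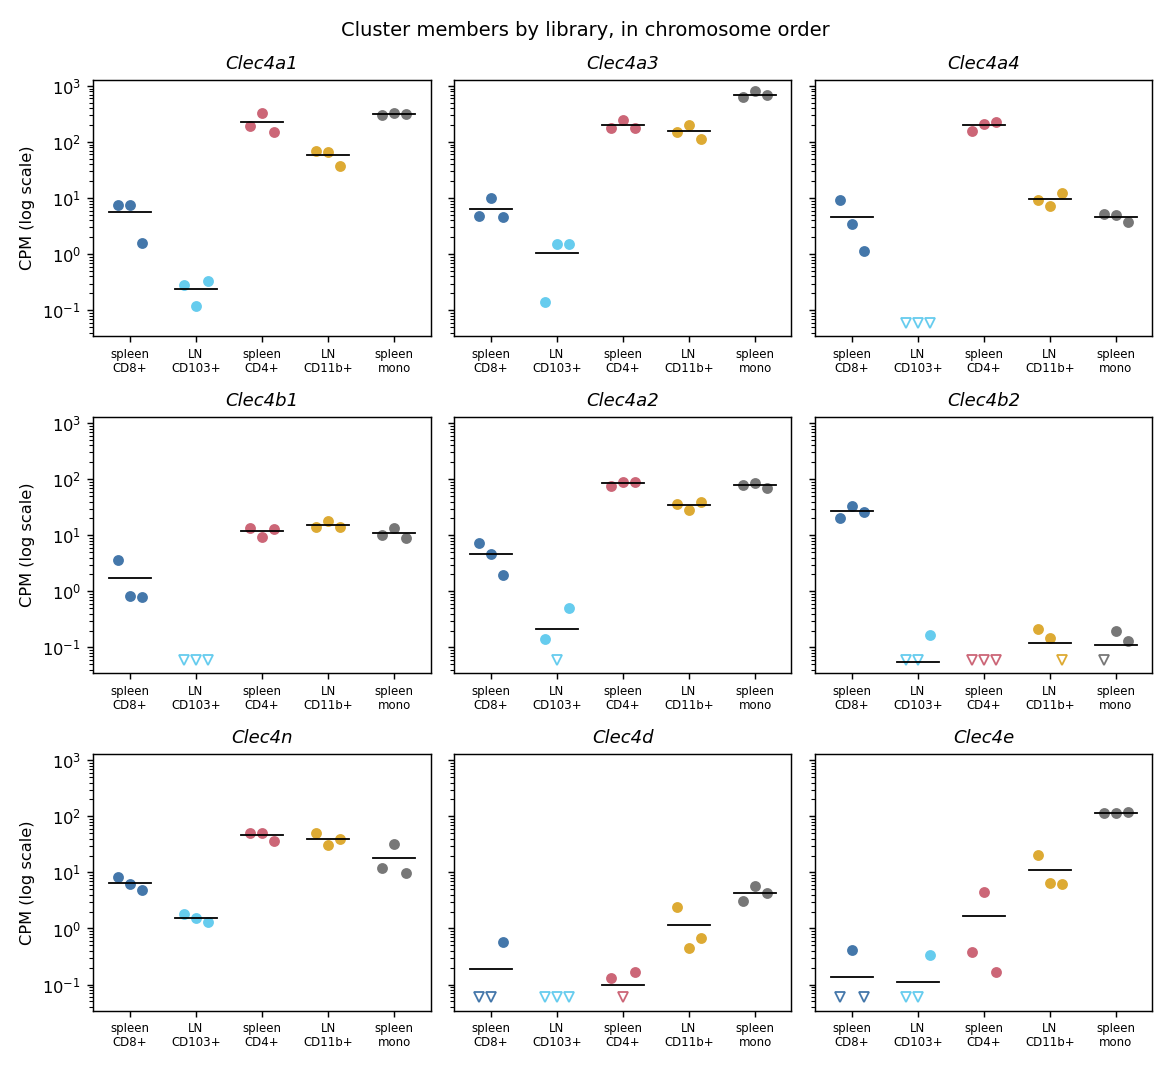
CPM of each member (log scale) in the 15 libraries, with 3 points and the mean (line) per subtype; open triangles at the bottom are libraries with no count. Clec4b2 is high in splenic CD8+ DCs alone (20.7 to 33.1 CPM), Clec4a4 in splenic CD4+ DCs (155 to 230 CPM) and Clec4e in monocytes (114 to 118 CPM).

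The DCAR paralogues had different patterns. Clec4b1 was present in DC2 and monocytes, with 13.3, 9.21 and 12.7 CPM in splenic CD4+ DCs, 13.8, 17.7 and 14.1 CPM in LN CD11b+ DCs and 10, 13.4 and 9.08 CPM in monocytes. The LN CD11b+ libraries lay just above the others, without overlap, but no pair of these 3 groups passed the test (adjusted p = 0.358 to 0.863). Splenic CD8+ DCs held 3.59, 0.809 and 0.802 CPM of Clec4b1 and LN CD103+ DCs no count, at least 110-fold below LN CD11b+ DCs.

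Clec4b2 had 173, 245 and 227 counts in splenic CD8+ DCs, or 20.7, 33.1 and 26 CPM. Splenic CD4+ DCs had no count, LN CD103+ DCs 1, LN CD11b+ DCs 3 and monocytes 3 over their libraries. Splenic CD8+ DCs were thus at least 174-fold above splenic CD4+ DCs. Against LN CD103+ DCs, the same lineage in the LN, the ratio was 578, with a 95% counting interval of 104 to 22826. No p is given for these differences, since Clec4b2 entered the test only through the group where it was high. No word of 50 bases in Clec4b2 occurred in another gene, but it shared up to 57 words of 20 bases with another member (Clec4a3). Levels among the other 4 subtypes were at or under the floor of 3 counts and gave no fold.

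Of the receptors that signal through the gamma chain, Clec4n (Dectin-2, which binds fungal mannans) was highest in DC2. Its CPM was 51, 51.1 and 37 in splenic CD4+ DCs, 50.4, 31.1 and 38.7 in LN CD11b+ DCs, 12.2, 32 and 9.87 in monocytes, 8.25, 6.21 and 4.81 in splenic CD8+ DCs, and 1.81, 1.52 and 1.33 in LN CD103+ DCs. The DC2 groups overlapped (adjusted p = 0.687). Monocyte replicate 2 stood above the other two monocyte libraries and reached the lowest LN CD11b+ library, and both of its sequencing runs gave such a level (30.5 and 33.7 CPM of the run). Without it, the difference between monocytes and splenic CD8+ DCs lost its call (log2 0.78, adjusted p = 0.0565, against 1.51 ± 0.37 and 0.00273 with it). The difference from LN CD11b+ DCs (log2 -1.14 ± 0.35, adjusted p = 0.0115) was -1.86 without it and lost its call without LN CD11b+ replicate 1 (log2 -0.93, adjusted p = 0.058), monocyte replicate 1 (-0.93, 0.0623) or monocyte replicate 3 (-0.84, 0.0684).

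Clec4e (Mincle, which binds mycobacterial cord factor) was highest in monocytes, with 117, 114 and 118 CPM. LN CD11b+ DCs held 20.2, 6.45 and 6.19 CPM, and monocytes were 10.6-fold higher (log2 3.37 ± 0.57, adjusted p = 8.27e-05), a log2 difference that was 4.20 without LN CD11b+ replicate 1. Summed neutrophil markers (10 genes) were also highest in monocytes, at 227, 215 and 338 CPM, with Ngp at 99.3, Ltf at 49.8 and S100a8 at 41.9 CPM on average but Ly6g at 0.219 CPM and Mmp9 at 0, against 4.86 to 6.35 CPM in LN CD11b+ DCs, and their part in the result was not tested. Splenic CD4+ DCs held 0.387, 4.43 and 0.166 CPM, and the DC1 subtypes 3 and 2 counts in all. The high LN CD11b+ library, replicate 1, also had the most summed monocyte marker CPM of its group, 2444 against 1417 and 1968. Most of this sum was Lyz2, at 1847, 913 and 1468 CPM. Of the listed genes only Csf1r and Ly6c2 were highest in replicate 3 and not in replicate 1. The part of these markers in the result was not tested. Clec4e was called lower in splenic CD8+ than in splenic CD4+ DCs (log2 -3.51 ± 1.25, adjusted p = 0.0435), which rested on CD4+ replicate 2: without it the log2 difference was -1.13 (adjusted p = 0.649). The call was also lost without splenic CD8+ replicate 1 or 3 (0.122 and 0.141), LN CD103+ replicate 3 (0.0507) or any monocyte library (0.0503 to 0.0512). With limma the call was lost on log2(TPM + 1) (0.314) and log2(TPM + 0.1) (0.117). Summed neutrophil markers in splenic CD4+ DCs were 25.4, 82.3 and 82.4 CPM, of which Mmp9 gave 23.7, 82 and 81.1 CPM, and Ly6g, S100a9, Elane and Mpo were at 0. The difference between LN CD103+ and splenic CD4+ DCs (log2 -3.86 ± 1.36, adjusted p = 0.0256) likewise went to -1.48 without it (adjusted p = 0.485), and was lost without LN CD103+ replicate 1 or 2 (0.0773 and 0.0923) and with both limma fits (0.243 and 0.071).

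Clec4d (MCL), which pairs with Mincle, was low throughout. It had 16, 59 and 32 counts in monocytes (3.15, 5.73 and 4.21 CPM) and 22, 3 and 3 counts in LN CD11b+ DCs, and between 0 and 5 in any other library. Monocytes were 42.8-fold above splenic CD4+ DCs, with a counting interval of 11.9 to 354. No p is given for this difference, since Clec4d passed the filter mainly through monocytes. Against LN CD11b+ DCs, monocytes did not pass the test (log2 1.84 ± 0.82, adjusted p = 0.0738). They did so without LN CD11b+ replicate 1 (log2 2.99, adjusted p = 0.026) or splenic CD8+ replicate 3 (1.84, 0.0422). This difference also passed with limma on log2(TPM + 1) (0.00119) or log2(TPM + 0.1) (0.0471) and in a fit of only these subtypes (0.0212). Given the filter, these passes are no support. Between LN CD11b+ and splenic CD8+ DCs, Clec4d did not pass (adjusted p = 0.0596), but did so without splenic CD8+ replicate 3 (0.00704) or LN CD11b+ replicate 2 (0.0434), with no filter on low counts (0.0352) and with both limma fits (0.0254 and 0.0177). Clec4d was higher in LN CD11b+ DCs than in LN CD103+ DCs, which had no count, and than in splenic CD4+ DCs (adjusted p = 0.0147 and 0.0352). Without LN CD11b+ replicate 1 neither passed (0.0857 and 0.244). The first was also lost without LN CD103+ replicate 2 (0.058), and the second without splenic CD4+ replicate 1, 2 or 3 (0.0561 to 0.101). At these counts smaller differences were not detectable.

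**Figure D3:**
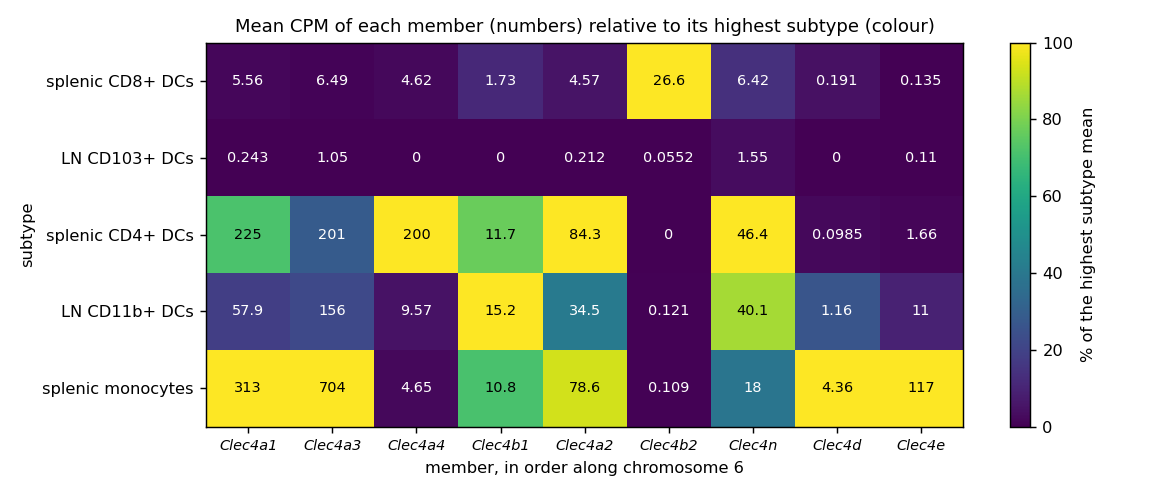
Mean CPM (numbers, n = 3 libraries) of each member in each subtype, coloured by its percentage of the highest subtype mean of that member, with members in chromosome order. By mean, Clec4a4, Clec4b1, Clec4a2 and Clec4n are highest in a DC2 subtype, Clec4a1, Clec4a3, Clec4d and Clec4e in monocytes, and Clec4b2 in splenic CD8+ DCs. The edgeR test did not set monocytes apart from a DC2 subtype for Clec4a2 (adjusted p = 0.817), Clec4a1 (0.277), Clec4b1 (0.358 and 0.863) and Clec4d (0.0738).

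The first comparison asked how the cluster differs between the DC lineages within an organ. In the spleen, 7 members were lower and 1, Clec4b2, was called higher in CD8+ than in CD4+ DCs, and Clec4d did not pass (adjusted p = 0.687). Clec4b2 was tested only through splenic CD8+ DCs, so that its call is no support. Of all 14456 genes tested, 14.4% were lower and 13.1% higher. The lower members ranged from Clec4a4, 43.3-fold lower, Clec4a1, 40.4-fold lower, and Clec4a3, 31-fold lower, to Clec4b1, 6.76-fold lower. Without splenic CD8+ replicate 1 the log2 difference went from -5.43 to -6.45 for Clec4a4 and from -2.74 to -3.83 for Clec4b1, so that Clec4b1 was then not the least different. The median log2 difference of the members was -3.51, beside 0.00 for all genes. Within the CD8+ group, replicate 1 had the highest levels of Clec4a1, Clec4a2, Clec4a4, Clec4b1 and Clec4n and replicate 3 the lowest, and the summed DC2 markers went the same way, at 277, 167 and 109 CPM against 1746 to 2717 CPM in splenic CD4+ DCs. Summed plasmacytoid DC markers (5 genes) were in the same order, at 277, 197 and 162 CPM. Of the 5, Tcf4 (136, 82.3 and 55.2 CPM) and Siglech (35.5, 13.5 and 3.89 CPM) followed it. Bst2, Ly6d and Ccr9 (50.6, 74.6 and 62.8 CPM) did not. The part of these in the DC1 levels was not tested.

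In the LN, 8 members were lower in CD103+ than in CD11b+ DCs and none was higher, against 7.73% and 5.22% of all genes. Clec4b2, at 1 and 3 counts, was the exception (adjusted p = 0.56). The ratio was 252 for Clec4a1, with a counting interval of 108 to 775, 147 (98.3 to 233) for Clec4a3 and 119 (33 to 983) for Clec4e, whose 2 counts in LN CD103+ DCs were both in replicate 3, and 25.8 for Clec4n. The median log2 difference was -7.19, beside -0.01 for all genes. DC2 markers summed to 96.3 to 129 CPM in LN CD103+ DCs and to 895 to 1023 CPM in LN CD11b+ DCs.

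The next comparisons set the organs, and with them cohort and migratory state, against each other within a lineage. In DC1, 7 members were lower in LN CD103+ than in splenic CD8+ DCs and none was higher, beside 21.8% and 23.8% of all genes. Among the 7 was Clec4b2, tested only through splenic CD8+ DCs, so that its call is no support. The difference was 4.13-fold for Clec4n, 6.14-fold (4.09 to 9.68) for Clec4a3, and at least 33.5-fold for Clec4a4, of whose 113 counts in splenic CD8+ DCs 77 were in replicate 1. Clec4d and Clec4e, with 5 and 3 counts in the splenic cells, did not pass (adjusted p = 0.12 and 0.908). In DC2, Clec4a1, Clec4a2 and Clec4a4 were lower in LN CD11b+ than in splenic CD4+ DCs, and Clec4d and Clec4e were higher. Clec4a3, Clec4b1, Clec4b2 and Clec4n did not pass. Clec4a2 lost its call with limma on log2(TPM + 0.1) (log2 -1.35, adjusted p = 0.0572). The calls were 3 lower and 2 higher, beside 13.8% and 19.3% of all genes, and the share of members higher was close to this background. Clec4d lost its call without LN CD11b+ replicate 1 (adjusted p = 0.244) or any splenic CD4+ library (0.0561 to 0.101). Clec4e was 7.17-fold higher in LN CD11b+ DCs, with a counting interval of 5.02 to 10.6 (adjusted p = 0.0036, but 0.0763 with DESeq2). The fitted log2 difference of 2.82 was 5.21 without splenic CD4+ replicate 2 and 1.99 without LN CD11b+ replicate 1, a range far wider than that interval, which covers counting error only. The summed monocyte markers were also higher in LN CD11b+ DCs, at 1417 to 2444 against 726 to 949 CPM. Most of the LN CD11b+ sum was Lyz2, at a mean of 1409 against 285 CPM in splenic CD4+ DCs. Of the listed genes only Csf1r was lower in LN CD11b+ DCs, at 342 against 516 CPM. The part of these markers was not tested.

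Whether the organ difference itself differed between the lineages was tested as an interaction. It passed for 5 members, among them Clec4b2, which could be tested only through splenic CD8+ DCs, and all with a lower LN level relative to spleen in DC1 than in DC2, beside 6.03% of all genes in that direction and 5.17% in the other. The adjusted p was 0.00162 for Clec4b1, 0.00814 for Clec4a2, 0.0148 for Clec4a3 and 0.0428 for Clec4n. Clec4a2, with 4 counts in LN CD103+ DCs, lost its call with limma on log2(TPM + 1) (log2 -0.63, adjusted p = 0.381, against -3.20 in edgeR), as did Clec4n (-1.48, 0.0615), and Clec4a3 lost it on log2(TPM + 0.1) (-2.61, 0.06). Clec4d, Clec4a1, Clec4a4 and Clec4e did not pass (0.0514, 0.0728, 0.238 and 0.473). Clec4a1 passed without splenic CD8+ replicate 3 (0.00858), splenic CD4+ replicate 2 (0.0322) or LN CD11b+ replicate 3 (0.048), and Clec4d without splenic CD8+ replicate 1 or 2 (0.0326 and 0.0377) or LN CD11b+ replicate 2 (0.0441). Both passed with DESeq2 (0.0242 and 0.0268), Clec4a1 also with the replicate number as a block (0.0283), Clec4a1, Clec4d and Clec4a4 with no filter on low counts (0.000356, 0.00983 and 0.0336), and Clec4e with limma on log2(TPM + 1) (0.0414). For Clec4n the call was lost when any of 10 of the 12 DC libraries was left out (adjusted p = 0.0547 to 0.107).

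The last comparisons set monocytes against each DC subtype. Against splenic CD4+ DCs, 3 members were higher in monocytes (Clec4a3, Clec4d, Clec4e) and 2 lower (Clec4a4, Clec4n), beside 23.8% and 24.2% of all genes, a share of the members close to this background. Against LN CD11b+ DCs, 4 were higher (Clec4a1, Clec4a2, Clec4a3, Clec4e) and 1 lower (Clec4n), beside 21.3% and 26.5%. Against splenic CD8+ DCs, 7 were higher, beside 20.4%, and 1, Clec4b2, was lower (204-fold, with a counting interval of 69.6 to 987), beside 21.7%. Against LN CD103+ DCs, 8 were higher and none lower, beside 24.6% and 28.6% of all genes, with Clec4a3 at a ratio of 666 (444 to 1051). For the order of levels, LN CD103+ DCs had 7 members lower and none higher than splenic CD4+ DCs (22.2% and 24.8% of all genes), and LN CD11b+ DCs 6 higher and 1 lower than splenic CD8+ DCs (22.5% and 17.3%). Clec4d was counted as higher in monocytes against splenic CD4+, splenic CD8+ and LN CD103+ DCs, but passed the filter mainly through monocytes. The 1 member lower than in splenic CD8+ DCs, both in monocytes and in LN CD11b+ DCs, was Clec4b2. It passed the filter only through splenic CD8+ DCs. These calls of Clec4d and Clec4b2 are no support. All of these comparisons share libraries and are not independent of each other.

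Across the 15 libraries, Clec4a1, Clec4a2 and Clec4a3 had like patterns (Pearson r of log2 CPM between 0.96 and 0.99), as did Clec4d and Clec4e (r = 0.89) and Clec4b1 and Clec4n (r = 0.94). Clec4b2 was negatively correlated with every other member, with r from -0.38 to -0.15. The points are 5 subtypes of 3 libraries each, so that these values mainly describe the subtype means. Neighbours on the chromosome were not always alike: Clec4b2 lies between Clec4a2 (r = -0.27) and Clec4n (r = -0.27). Genes outside the cluster were compared where their highest subtype mean was 10 CPM or more, and those most like the members were Sirpb1c and Sirpb1b for Clec4a1 (r = 0.995 and 0.993), Sirpa and Sirpb1b for Clec4a2 (0.989 and 0.980) and for Clec4b1 (0.959 and 0.935), and Gm5150 and Sirpb1c for Clec4a3 (0.974 and 0.974). Sirpa encodes an inhibitory receptor for CD47 that marks DC2. For Clec4a4 they were Prkcb and Rgl1 (0.961 and 0.954), for Clec4b2 Elac2 and Snx22 (0.965 and 0.958), for Clec4d F10 and Cux1 (0.971 and 0.949), for Clec4e Pde7b and Cd14 (0.969 and 0.965), and for Clec4n Polr2c and Acp5 (0.917 and 0.916). Cd14, the lipopolysaccharide co-receptor, reached 844 ± 81.6 CPM in monocytes and 13.5 ± 0.78 CPM in LN CD103+ DCs.

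Of the genes within 500 kb of the cluster, 9 of the 21 before it and 0 of the 13 after it passed the filter, and their r with the member most like them ran from 0.28 to 0.90. Slc2a3, a glucose transporter, had its highest level in splenic CD4+ DCs (125 ± 32.1 CPM, against 28.3 ± 22.3 in splenic CD8+ DCs and 10.9 ± 6.48 or less elsewhere), and of the members its pattern was most like that of Clec4a4 (r = 0.85). Necap1, an endocytosis gene, was most like Clec4a1 (r = 0.90), with 65.5 ± 0.904 CPM in monocytes and 9.93 ± 1.51 CPM in LN CD103+ DCs.

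The signalling partners of these receptors were counted in all subtypes, also in LN CD103+ DCs. Dok2 was low in the splenic DCs, with 26 counts in CD8+ and 28 in CD4+ DCs. The gamma chain gene Fcer1g stood at 1206 ± 64.2 CPM in monocytes, 364 ± 51.7 in splenic CD4+ DCs, 305 ± 59 in LN CD11b+ DCs, 88.4 ± 29.8 in splenic CD8+ DCs and 81.9 ± 1.19 in LN CD103+ DCs. It was lower in DC1 than in DC2 in the spleen (log2 -2.04 ± 0.23, adjusted p = 2.51e-06) and in the LN (log2 -1.90 ± 0.23, adjusted p = 1.36e-05), and did not pass between the DC1 subtypes (adjusted p = 0.717). Syk followed the same order of lineages, at 791 ± 46.1 CPM in monocytes, 496 ± 87.5 and 445 ± 29.9 CPM in the DC2 subtypes, and 149 ± 36.4 and 173 ± 24 CPM in the DC1 subtypes. Card9, the adaptor after Syk, was lowest in splenic CD8+ DCs (4.97 ± 1.70 CPM) and did not pass between the LN subtypes, at 12.3 ± 5.99 and 12.3 ± 0.703 CPM (adjusted p = 0.99). For Syk, too, LN CD103+ and splenic CD8+ DCs did not pass the test (log2 0.22 ± 0.20, adjusted p = 0.404).

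Of the 12 genes of the activating arm, 10 were higher in monocytes than in splenic CD8+ DCs and none was lower, beside 20.4% and 21.7% of all genes, and 9 were higher and 1 (Malt1) lower than in splenic CD4+ DCs, beside 23.8% and 24.2%. In splenic CD8+ against CD4+ DCs, 8 were lower and 1, the exchange factor Vav1, was higher, beside 14.4% and 13.1%. In the LN, 4 were lower in CD103+ than in CD11b+ DCs and none was higher, beside 7.73% and 5.22%. Fgr, a Src family kinase, differed most between the LN subtypes of these (log2 -3.12 ± 0.30, adjusted p = 1.15e-06). Of the 6 genes listed for the inhibitory arm, 1 was lower and 2 were higher in splenic CD8+ than in CD4+ DCs. This stood beside the same 14.4% and 13.1%, which counts this small do not set apart. The lower one was Ptpn6, which encodes SHP-1, at 345 ± 86.9 against 1238 ± 329 CPM (log2 -1.84 ± 0.22, adjusted p = 6.37e-06), and the higher ones were Ptpn11, which encodes SHP-2, and Inpp5d, which encodes the phosphatase SHIP-1. In the LN only Dok2 of the 6 passed, lower in CD103+ DCs beside 7.73% of all genes (log2 -2.12 ± 0.58, adjusted p = 0.0205). Of its 367 counts in LN CD11b+ DCs, 251 were in replicate 1. Between LN CD11b+ and splenic CD4+ DCs, 2 of the 6 were lower in the LN, beside 13.8% of all genes: Ptpn6 (log2 -1.36 ± 0.22, adjusted p = 9.1e-05) and Inpp5d. The other called genes, Inpp5b, Dok1 and Dok2, were 3 that were higher in the LN, beside 19.3%. Inpp5b is in this arm by the list alone, and whether it acts with these receptors was not tested.

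**Figure D4:**
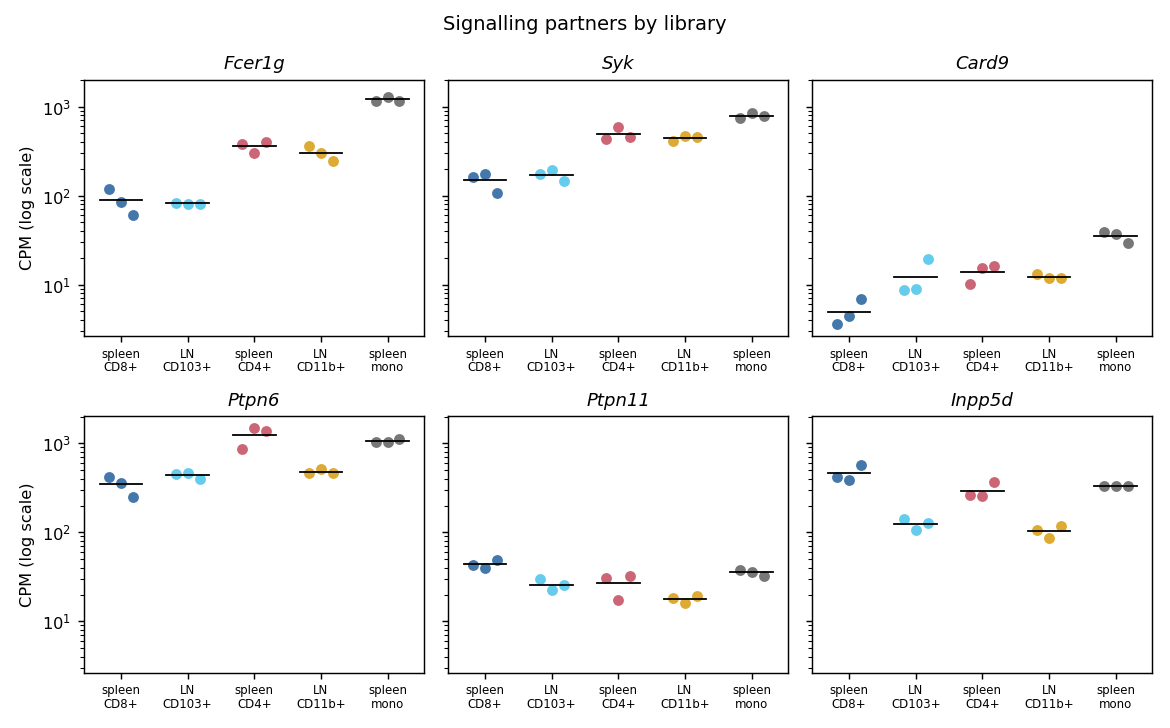
CPM (log scale) of 6 signalling partners in the 15 libraries, with 3 points and the mean (line) per subtype. Fcer1g and Syk are lower in both DC1 subtypes than in both DC2 subtypes and highest in monocytes (1206 and 791 CPM), and Ptpn6 is highest in splenic CD4+ DCs and monocytes.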

How the data were processed

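RNA was measured in 15 murine libraries, 3 of each subtype, grouped by sample title. The authors aligned Ion Torrent reads to mm10 with STAR 2.4.0j and counted unique reads per gene with featureCounts (Subread 1.5.2) on Ensembl 75 models, unstranded and with a read that overlaps several genes counted for each, and deposited these counts without normalization. The deposited TPM divides the counts by exon length, and a recomputation differed by at most 9.604e-10. Monocyte libraries were sequenced in 2 runs that were summed. Of 38924 identifiers, 37607 matched a symbol in GENCODE vM21.

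Genes with over 1 CPM in at least 3 libraries (14456) were fitted in edgeR 4.0.16 (R 4.3.3; TMM, quasi-likelihood test, 1 mean per subtype, 10 residual degrees of freedom). An adjusted p is a Benjamini-Hochberg value over all genes tested from this fit, with a threshold of 0.05, and the SE is the absolute log2 fold change over the root of F. Libraries held 4531243 to 10233914 counts, and CPM used these totals scaled by TMM. A group without counts was set to 3 counts, and ratios over a group of up to 30 counts were given an exact 95% Poisson interval, which covers counting error only. Pairs of replicates varied 4.957 to 50.67 times more than counting alone gives. They were pools of mice, and the p-values measure the spread between pools.

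The members and lists were chosen with earlier results of these data known. Named were the members, the 2 genes most correlated with each (log2 CPM, prior count 2), genes within 500 kb and a list of 18 signalling genes. Alternatives were RLE, DESeq2 1.42.0, limma 3.58.1 on log2(TPM + 1) or log2(TPM + 0.1), other filters, a fold threshold, fits of fewer subtypes, a replicate block and leaving out each library.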

Additional observations from a re-analysis of the deposited data

Results flagged for a closer look

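The difference between LN and spleen differed between the DC1 and DC2 lineages for 5 members, by the interaction term of the edgeR fit over all genes. The adjusted p was 0.000824 for Clec4b2, which had 645 counts in splenic CD8+ DCs and 1 in LN CD103+ DCs and could be tested only through the former, so that this p is no support, and 0.00162 for Clec4b1, which had no count in LN CD103+ DCs and 313 in LN CD11b+ DCs. It was 0.00814 for Clec4a2, 0.0148 for Clec4a3 and 0.0428 for Clec4n. For Clec4b1 and Clec4b2 a group stood at 0 counts, so that the size of the fitted interaction depends on the prior count and is not given. The interaction was -3.20 ± 0.74 on the log2 scale for Clec4a2, -2.23 ± 0.57 for Clec4a3 and -1.82 ± 0.56 for Clec4n. The Clec4a2 value rests on 4 counts in LN CD103+ DCs: it was -2.54 without LN CD103+ replicate 2, -4.53 without replicate 3 and, with limma on log2(TPM + 1), -0.63 (adjusted p = 0.381). With limma the call was also lost for Clec4n on log2(TPM + 1) (0.0615) and for Clec4a3 on log2(TPM + 0.1) (0.06).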

How the results depend on the processing

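No member's called difference changed direction under any alternative run. Of the 99 log2 fold changes (9 members in 11 comparisons), 99 kept their side of the threshold with RLE size factors, with filterByExpr and with a required absolute log2 fold change of 1, 94 did so with DESeq2, 93 with no filter on low counts, 92 with limma on log2(TPM + 0.1) and 91 with limma on log2(TPM + 1). With no filter on low counts the members called in the interaction rose from 5 to 8, and the cause was not tested. Leaving out each library moved the members called to 6 to 8 in splenic CD8+ minus CD4+ DCs, 7 to 8 in LN CD103+ minus CD11b+ DCs, 4 to 7 in monocytes minus LN CD11b+ DCs and 4 to 6 in the interaction. Of the 73 differences called, 32 moved over 1.5 times when some 1 library was left out. Clec4b2 failed the filter when a splenic CD8+ library was left out. Over all genes, those called between splenic CD8+ and CD4+ DCs went from 3966 to 2643 with a required absolute log2 fold change of 1 and to 2600 in a fit of only these subtypes, and those between the LN subtypes from 1872 to 1216 without LN CD103+ replicate 2. For Clec4e between LN CD11b+ and splenic CD4+ DCs, DESeq2 gave an adjusted p of 0.0763.

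With the replicate number as a block (replicate block), 6 members were called in the interaction against 5 without it, since Clec4a1 passed (adjusted p = 0.0283), and no other call of a member changed. Nothing in the labels ties the numbers to a shared mouse or day. Numbers were taken to pair libraries only if every same-numbered pair correlated above 0.1 in its deviations from the subtype means. This held for 14 of 30 pairs (median 0.08, range -0.04 to 0.38). The 30 included pairs of a spleen and a LN library, which came from different cohorts, so this rule cannot decide pairing within an organ. Pairs of different number had a median of -0.03 (-0.29 to 0.04, 60 pairs), and 13 of the 15 libraries, all but monocyte replicates 1 and 2, correlated best with their own number, which is a hint from the data and not the design. Multimapping paralogues and totals of 69 member counts in LN CD103+ DCs limit what can be said of low levels there.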
